A study of Xenopus tropicalis with 13 samples.

Results

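Bins are pieces of a gene, cut where its assembled transcripts start, stop or splice differently, and usage sets a bin's reads against those of the whole gene. The regions described here are the bins that had no read in any uninjected neurula of the western clawed frog, Xenopus tropicalis. They were chosen from the authors' deposited stage 15 bin table by a raw count of 0 in all 4 uninjected embryos. There were 229 such bins, called silent bins below, among 1429 listed bins, and they lay in 190 host genes of the 1046 genes with a listed bin. The list itself holds bins past an adjusted p of 0.1 that were higher in morpholino (MO) injected embryos. Its lowest log2 usage ratio (MO-injected over uninjected) was 1.00, so a cutoff on this ratio seems to apply as well. Silent bins had ratios of 4.21 or more, so such a cutoff would have held back other bins only. The list is 0.746% of the at least 191566 bins that its p-values imply were tested. Both the list and the choice of silent bins used the stage 15 reads, so every stage 15 value below is a description and carries no test of its own.

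RNA with a polyadenylated tail was sequenced from 13 single whole embryos. At stage 15, a neurula stage, there were 3 MO-injected embryos and 4 uninjected embryos, and at stage 10, the start of gastrulation, 3 MO-injected embryos and 3 uninjected embryos. The series is on depletion of Taf15, and the titles of all MO-injected embryos hold the tag trns1, whose meaning the labels do not spell out. The same string is in the title start tafTrns1s12p3, which uninjected embryos share, so it need not name the oligonucleotide. None of the 13 embryos was labelled as injected with a mismatch oligonucleotide, and all had been cultured in the same medium. The number in a count column (MO-injected 1 to 3, uninjected 1 to 4) is not tied by the labels to a titled embryo, and the stage 15 count columns are named for stage 10. Titles of the stage 15 embryos begin in 2 ways, RHCD with 1 MO-injected and 1 uninjected embryo and tafTrns1s12p3 with 2 MO-injected and 3 uninjected embryos. Since count columns cannot be matched to titles, no value within either is given. One uninjected embryo is described as stage 10 although its title and stage field give stage 15, and it was placed at stage 15. The gene taf15 had 0 rows in the bin and gene tables used here, which therefore hold no check of its depletion. These tables list selected genes only, and the whole-embryo label was not checked by markers.

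Taf15 belongs to the FET family of RNA-binding proteins, which bind nascent transcripts and act in transcription and splicing. A morpholino is a synthetic antisense oligonucleotide that blocks translation or splicing of its target. Reads in a bin that is normally unused can come from a retained intron, an alternative exon, an extended end of a transcript or an overlapping transcript, and the count of a bin alone does not tell these apart. In whole embryos, fewer cells that make an RNA and less of it per cell cannot be told apart either.

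Most silent bins were thinly read in MO-injected embryos as well. The median bin had 4, 4 and 5 reads in MO-injected embryos 1, 2 and 3, against 0 in each uninjected embryo, and the mean over the 3 MO-injected embryos had a median of 4.33 reads per bin and ranged between 2 and 173. The other 1200 listed bins had a median mean of 16.2 reads per MO-injected embryo. Reads were present in all 3 MO-injected embryos in 178 of the 229 silent bins, or 77.7%. With uninjected counts fixed at 0, that is by definition also the number with every MO-injected embryo above every uninjected one. Over all listed bins the share of the latter was 75.5%. Nothing is read from the difference, because the list was made from the same counts. In 48 silent bins 2 MO-injected embryos had reads, and in 3 bins only 1 had.

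The silent bins took a small part of the listed reads in every MO-injected embryo. Together they held 1685 reads in MO-injected embryo 1, 2719 in embryo 2 and 3625 in embryo 3, which was 3.34%, 3.63% and 4.33% of the reads in all listed bins. Embryo 3 had the highest count, without a tie, in 99 silent bins, embryo 2 in 62 and embryo 1 in 41. In the other listed bins these embryos had 48766, 72217 and 80142 reads. In the uninjected embryos the other listed bins held 6020, 4922, 8389 and 7024 reads. The total depth of each library is unknown, so raw counts are compared without a correction for it. The 10 silent bins with the most reads held 38.0% of the 8029 reads in all silent bins of the 3 MO-injected embryos.

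Of all silent bins, the largest mean count belonged to a gene that the files name only as Xetro.C00434. Its bin E014, 72 bases wide (scaffold_3, 11368663 to 11368734, plus strand), had 159, 144 and 215 reads in MO-injected embryos, a mean of 173 ± 37.4 (SD, n = 3), against 0 in the 4 uninjected embryos. These coordinates, and all those below, are in a genome build not given in the sources consulted. An uninjected level of 3 reads over the 4 embryos was set as a floor for a count of 0, for counting error only. Against this floor the MO-injected mean was 230-fold higher in raw reads. A count of 0 does not exclude a higher level, and the MO-injected mean is taken without its error, so this fold is not a strict lower bound. Bin E011 of the same gene was also listed but was read in every embryo, with 420, 884 and 929 reads in MO-injected embryos and 26, 19, 65 and 29 in uninjected embryos.

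Of hosts with a gene symbol, the largest mean was that of afap1, whose protein binds and cross-links actin filaments. Bin E007, 2892 bases wide (scaffold_1, 194495462 to 194498353, plus strand), had 18, 259 and 197 reads in MO-injected embryos and none in uninjected embryos. Embryo 1 stood well below the other 2, and the SD of 125 was nearly as large as the mean of 158. In the authors' deposited table its adjusted p was 4.56e-10, larger than that of several bins with fewer but more even reads. The gene hras, for a small GTPase of growth factor signalling, came next with bin E003, only 6 bases wide (scaffold_607, 35454 to 35459). It had 66, 90 and 137 reads in MO-injected embryos and none in uninjected embryos (130-fold higher in raw reads against the same floor). A bin narrower than a read is counted through reads that reach into its neighbours, so its count is not a level per length.

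Some of the wider silent bins had high counts in all 3 MO-injected embryos. Bin E008 of eif4g3, which encodes a scaffold of the translation initiation complex, had 43, 79 and 145 reads over 930 bases (scaffold_543, 6703 to 7632), against 0 in uninjected embryos. In adssl1, for the muscle form of an enzyme of AMP synthesis, bin E011 had 72, 65 and 107 reads over 856 bases (scaffold_8, 77992001 to 77992856). Among hosts with a symbol, no silent bin had a smaller adjusted p than its 4.31e-72 in the authors' deposited table. Per kilobase, the MO-injected means of these bins were 95.7 reads in eif4g3 and 95.0 in adssl1.

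Further bins among the 10 largest means in genes with a symbol were in snx17 and gapvd1. Bin E010 of snx17, a sorting nexin that returns receptors to the cell surface, had 107, 73 and 36 reads in MO-injected embryos over 293 bases (scaffold_775, 19678 to 19970), here with embryo 1 highest. Bin E008 of gapvd1, a regulator of endosomal Rab5, had 41, 49 and 51 reads over 602 bases (scaffold_8, 15168313 to 15168914). This was the most even of the 10, with a mean of 47.0 ± 5.29 reads (SD, n = 3). Both bins had 0 reads in every uninjected embryo.

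Bin E037 of ppfibp1, which encodes the adaptor protein liprin-beta-1, had 29, 70 and 96 reads over 327 bases (scaffold_602, 30069 to 30395) in MO-injected embryos. Bin E005 of agbl3, for a carboxypeptidase that trims glutamate chains of tubulin, had 40, 26 and 89 reads over 1249 bases (scaffold_3, 4887472 to 4888720). In the authors' deposited table the adjusted p was 2.63e-56 for ppfibp1, 9.02e-47 for hras, 5.09e-44 for agbl3 and 2.14e-43 for gapvd1, which with adssl1 were the 5 smallest among hosts with a symbol. None of the 4 uninjected embryos had a read in any of them, and every MO-injected embryo had reads in each.

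**Figure D1:**
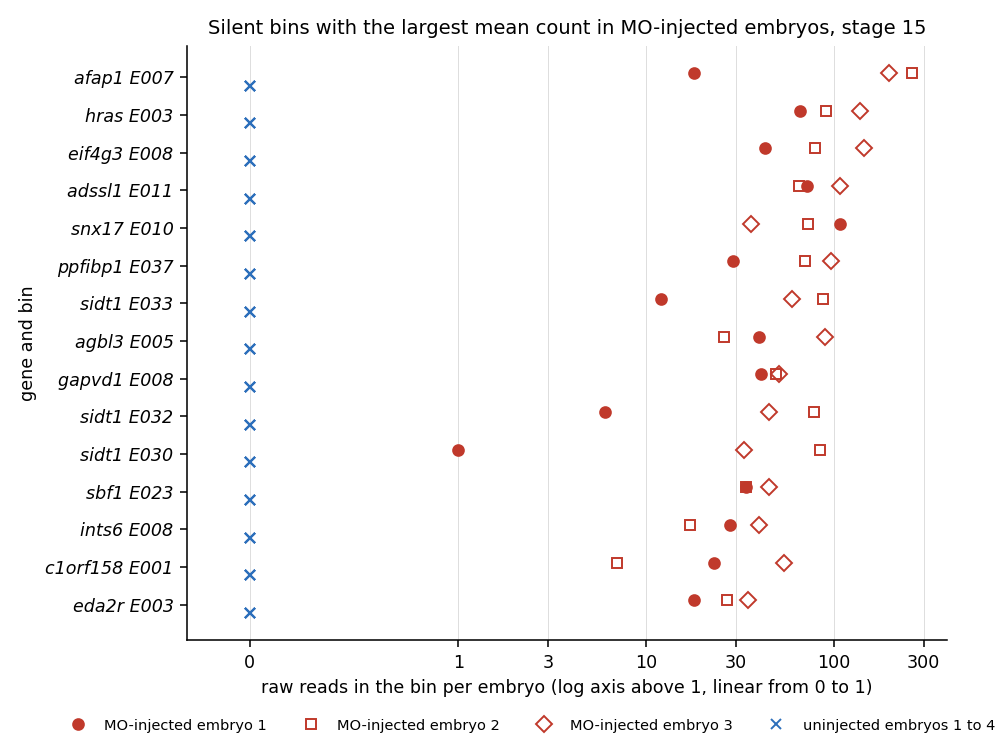
Raw reads per embryo (x axis, logarithmic above 1 and linear from 0 to 1) in the 15 silent bins with the largest mean in MO-injected embryos whose host has a gene symbol (y axis). Red circles, squares and diamonds are MO-injected embryos 1, 2 and 3, and blue crosses are the 4 uninjected embryos, all at 0. Embryo 1 lies apart at the low end in afap1 E007 (18 reads) and in sidt1 E030 (1 read).

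Silent bins were narrower than the other listed bins. Their median width was 120 bases (quartiles 56 and 264, range 1 to 3197), against 203 bases (quartiles 89 and 661.5, range 1 to 10856) for the other listed bins. Of the silent bins 57.6% were under 150 bases and 11.4% were 600 bases or more, against 41.2% and 27.2% of the other bins. Bins are not replicates of a condition and a narrow bin holds fewer reads at the same level, so no test of this difference was made. Among bins of at least 100 bases, MO-injected embryos had a median of 24.2 reads per kilobase in 124 silent bins and 52.2 in 866 other listed bins.

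**Figure D2:**
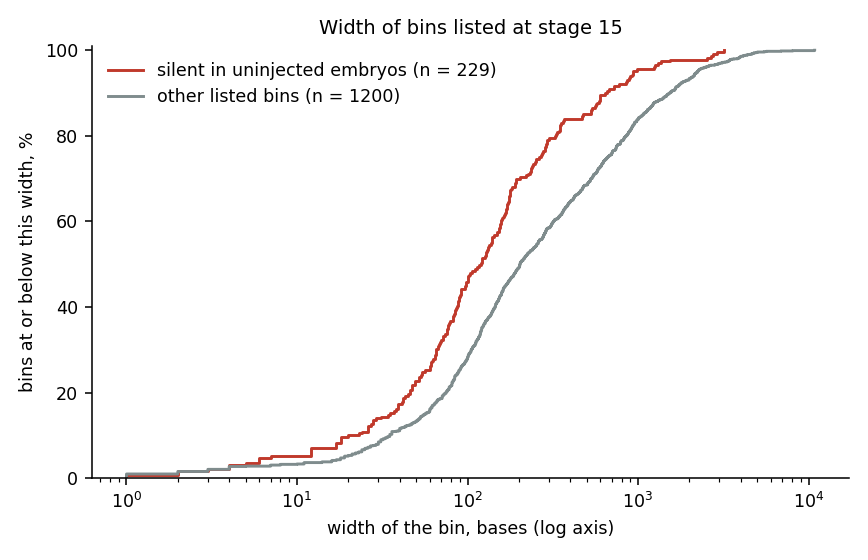
Cumulative share of bins (y axis, percent) at or below a width (x axis, bases, logarithmic) for the 229 silent bins (red) and the 1200 other bins listed at stage 15 (grey). The red line crosses 50% at 120 bases and the grey line at 203 bases.

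The widest silent bins of genes with a symbol were nkain1 E014 (3197 bases), afap1 E007, mpp7 E001 (2745 bases), nhs E005 (2683 bases) and tacc2 E024 (2519 bases). Apart from afap1 they held few reads. In nkain1, for a membrane protein that binds the sodium pump, MO-injected embryos had 3, 2 and 8 reads (scaffold_2, 2164451 to 2167647). In mpp7, a scaffold of cell polarity and junctions, they had 1, 12 and 11 reads (scaffold_6, 120953183 to 120955927). The genes nhs, a regulator of actin and cell shape, and tacc2, a centrosome protein, had 3, 9 and 2 reads and 1, 4 and 2 reads in MO-injected embryos.

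At the other end, 12 silent bins (5.24%) were 10 bases wide or fewer, against 3.33% of the other listed bins. The narrowest in a gene with a symbol was map1a E003, a bin of 1 base in a gene for a neuronal microtubule protein, with 5, 0 and 5 reads in MO-injected embryos. It was followed by msmb.3 E004 (2 bases; 1, 0 and 10 reads) and by pgp E004 (3 bases), in the gene for phosphoglycolate phosphatase. The pgp bin had 4, 28 and 36 reads in MO-injected embryos. A further bin of pgp, E003, was listed with 19, 85 and 117 reads in MO-injected embryos and 0, 0, 4 and 3 in uninjected embryos.

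Silent bins made up most of the thinly read listed bins and few of the well-read ones. The list and the rule used these same reads, so the shares are partly set by the choice. Other listed bins had a median of 2 uninjected reads in the lowest class below and 30 in the highest. Of listed bins with under 10 reads summed over the 3 MO-injected embryos, 75 of 127 (59.1%) were silent, and of those with 10 to 29 reads 104 of 458 (22.7%) were. The share was 7.16% (32 of 447) at 30 to 99 reads and 4.53% (18 of 397) at 100 reads or more. Within these 4 classes, from few to many reads, the median width of silent bins was 76, 128.5, 162.5 and 310 bases. That of the other bins was 130.5, 135, 187 and 483 bases, so silent bins were the narrower in each, by little at 10 to 29 reads. By width, 21.1% of listed bins under 150 bases were silent, 15.8% of those of 150 bases or more but under 600 and 7.37% of those of 600 bases or more.

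**Figure D3:**
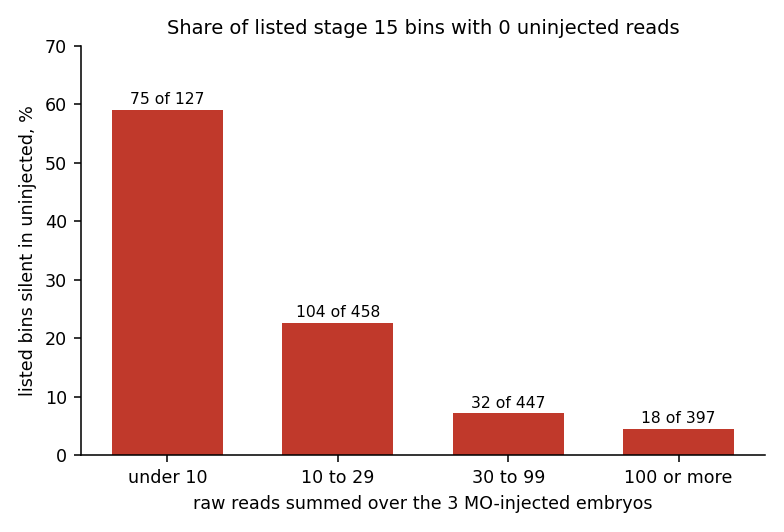
Share of listed stage 15 bins that had 0 reads in all 4 uninjected embryos (y axis, percent, from 0), by the reads summed over the 3 MO-injected embryos (x axis). Numbers above the bars are silent bins of listed bins, and the share is 59.1% in the lowest class and 4.53% in the highest.

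Position and structure, which the rule did not use, gave nearly equal shares. A bin belonged to 1 assembled transcript in 143 silent bins (62.4%) and in 749 other bins (62.4%). It was the first bin of its gene by coordinate in 10.0% of silent bins and 9.92% of the others. It lay outside the scaffolds numbered 1 to 10 in 17.0% of silent bins and 17.1% of the others. The plus strand held 50.7% of silent bins and 46.6% of the others.

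Of the 190 host genes, 170 had 1 silent bin and 20 had several, and 8 hosts with 3 or more held 35 silent bins. In 142 hosts every listed bin was silent, and in 48 other listed bins of the gene had uninjected reads. Silent bins of 1 gene are not independent, since a read that spans neighbouring bins counts in each, and 9 pairs of silent bins touched each other.

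The most silent bins, 9 of 21 listed, were in a gene named only as Xetro.A01764. They had 36, 20 and 43 reads together in MO-injected embryos, and the widest was 275 bases. Read bins lay among them, such as E040, 1760 bases wide, with 25, 43 and 47 reads in MO-injected embryos and 12, 0, 4 and 3 in uninjected embryos.

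In ap3s1, for a subunit of the AP-3 adaptor complex that sorts cargo from endosomes to lysosomes, 20 bins were listed, E002 to E021 without a gap. Of these, 5 were silent, with 12, 3 and 15 reads (E010), 9, 6 and 3 (E012), 7, 7 and 8 (E013), 3, 1 and 6 (E018) and 3, 2 and 6 (E021) in MO-injected embryos. The other 15 bins of ap3s1 had at most 3 reads in any uninjected embryo, for example 18, 5 and 13 reads in MO-injected embryos and 2, 0, 0 and 0 in uninjected embryos in E011. By coordinate, E002 to E009 all had uninjected reads, but only 1 to 4 per bin over the 4 embryos. The silent bins lay from E010 on, with read bins among them. The gene is on the minus strand, so bin numbers run against the direction of transcription.

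Another unnamed gene, Xetro.K00724, had 5 silent bins among 15 listed ones on scaffold_42. The whole gene was listed as higher too (log2 fold change 2.05, SE 0.612, in the authors' deposited stage 15 gene table). Its silent bins had 82, 367 and 741 reads together in MO-injected embryos, and in each of the 5 embryo 3 was highest and embryo 1 lowest. The listed bin E036 of that gene had 49, 179 and 236 reads in MO-injected embryos and 0, 0, 0 and 2 in uninjected embryos, again with embryo 3 highest and embryo 1 lowest.

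In sidt1, for a membrane protein related to a worm transporter of double-stranded RNA, the 3 listed bins were all silent and 1233 to 1538 bases wide. They had 1, 84 and 33 reads (E030), 6, 78 and 45 reads (E032) and 12, 87 and 60 reads (E033) in MO-injected embryos. Embryo 2 was highest and embryo 1 lowest in each. All 4 listed bins of c1orf158 were silent, and together they had 49, 16 and 90 reads in MO-injected embryos, here with embryo 2 lowest.

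The remaining hosts with 3 silent bins were fchsd2, ube2o and ildr1. The fchsd2 bins, in a gene for a membrane-bending protein of endocytosis, had 13, 50 and 34 reads together in MO-injected embryos. Those of ube2o, a ubiquitin-conjugating enzyme, had 13, 15 and 27 reads together. The ildr1 bins, in a gene for a protein of tricellular junctions, were 3 touching bins of 65 bases each with 2 or 3 reads per MO-injected embryo, so the same reads may be counted in all 3.

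**Figure D4:**
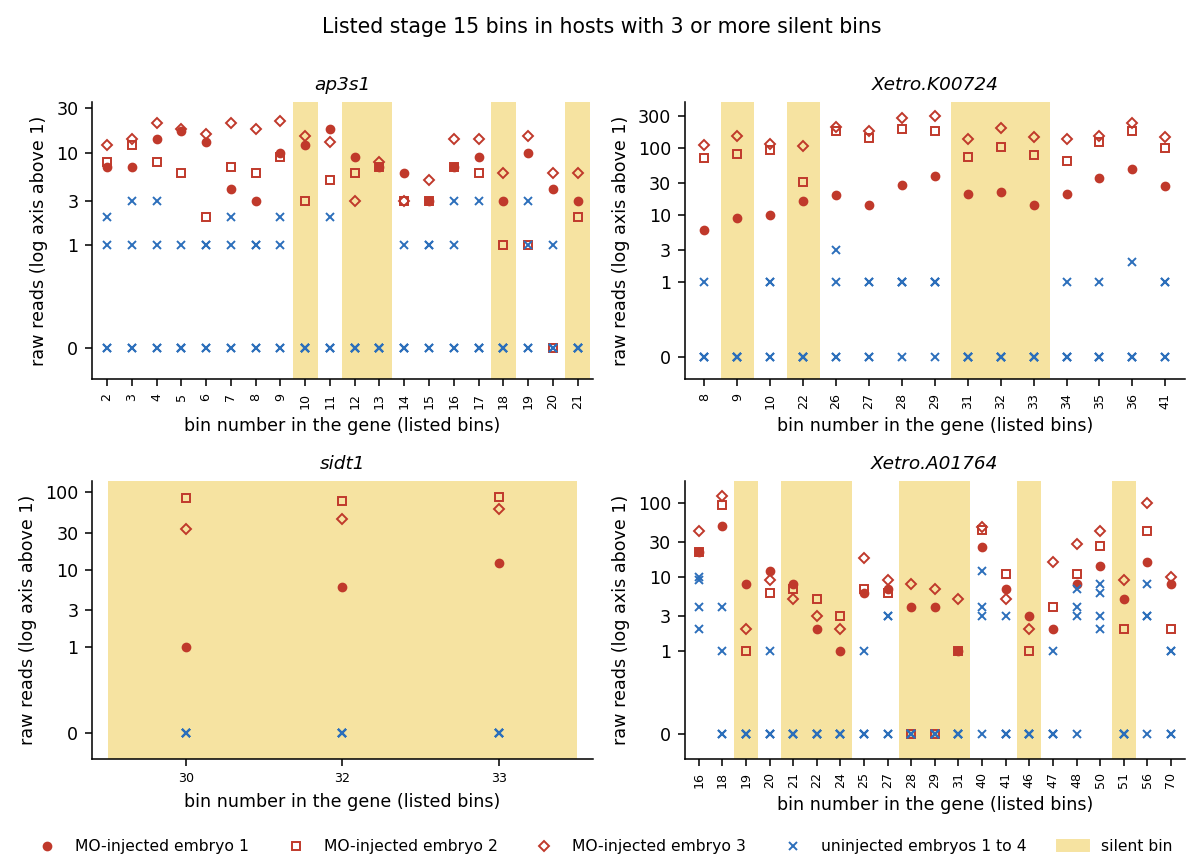
Raw reads per embryo (y axis, logarithmic above 1) in every listed stage 15 bin of 4 hosts with 3 or more silent bins, in the order of bin numbers (x axis). Red symbols are MO-injected embryos 1 to 3, blue crosses are the 4 uninjected embryos, and yellow bands mark silent bins. In ap3s1, a gene on the minus strand, the first 8 listed bins by coordinate had a few uninjected reads and silent bins begin at E010. MO-injected embryo 1 is lowest in all bins of Xetro.K00724 and sidt1.

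The values on either side of the threshold were close for thin bins and far apart for a few. The lowest count among silent bins was 6 reads summed over the 3 MO-injected embryos, as in farp2 E030 (1, 4 and 1 reads), fes E009 (3, 1 and 2) and fndc3b E007 (2, 4 and 0). Just outside, 142 listed bins had 1 read in the 4 uninjected embryos together. They had a median of 16 reads over the 3 MO-injected embryos, against 13 for silent bins, and a median width of 132.5 bases, against 120. The largest of these with a symbol was gpr110 E012, in an adhesion receptor gene, with 227, 347 and 304 reads in MO-injected embryos and 0, 0, 0 and 1 in uninjected embryos. It was followed by shoc2 E005 (72, 218 and 4 reads in MO-injected embryos) and trmt61b E002 (77, 73 and 103 reads), each with 1 uninjected read.

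A further 3 silent bins rested on 1 MO-injected embryo. Bin E004 of hrh3, for a histamine receptor, had 0, 0 and 6 reads in MO-injected embryos. Those of Xetro.K02407 (E008; 0, 0 and 41 reads) and Xetro.A00643 (E007; 0, 12 and 0 reads) were in genes with no symbol. In the authors' deposited table their adjusted p-values were 0.0598, 0.0103 and 0.0307.

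The fitted usage ratio of a silent bin is not a measured fold. In the authors' deposited table the log2 usage ratio (MO-injected over uninjected, sign turned) ranged from 4.21 to 14.24 in silent bins, with a median of 5.90, and reached at most 4.55 in the other listed bins. Because the uninjected counts are 0, the ratio follows the small fitted uninjected usage, which ranged from 0.000151 to 0.168. That usage is the denominator of the ratio, so a negative correlation between them is largely set in advance. Across the 229 bins, which share embryos and the fit, the Spearman correlation of the ratio was -0.83 with the fitted uninjected usage and 0.39 with the summed MO-injected reads. The circadian gene per2 shows the difference. Its bin E032 had 2, 4 and 5 reads in MO-injected embryos and a log2 usage ratio of 14.14 in the authors' deposited table, whereas eda2r E003, with 18, 27 and 35 reads, had 4.67.

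Stage 10 embryos are other animals and played no part in choosing the bins. Of the 229 silent bins, 6 (2.62% of them and 2.63% of the 228 bins listed at stage 10) were listed at stage 10, against 102 of the 1200 other bins and 7.56% of all listed stage 15 bins. The stage 10 list is 0.140% of the at least 162381 bins tested there, and a bin that is not listed was not shown to be unchanged. At stage 15 the silent bins had a median of 13 reads summed over the MO-injected embryos, against 48.5 in the other listed bins. Whether low reads kept silent bins off the stage 10 list was not tested. All 6 were higher in MO-injected embryos, as every listed bin is.

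Of these 6, 4 were not silent at stage 10. Bin E014 of Xetro.C00434 had 49, 77 and 62 reads in MO-injected embryos at stage 10, against 5, 0 and 1 in uninjected embryos (adjusted p = 2.11e-39 in the authors' deposited table). Bin E003 of hras had 18, 25 and 39 reads in MO-injected embryos, against 4, 0 and 1 in uninjected embryos. Bin E003 of extl3, for a glycosyltransferase of heparan sulfate synthesis, had 14, 10 and 16 reads in MO-injected embryos at stage 10, against 1, 1 and 2 in uninjected embryos. At stage 15 the extl3 bin had 0, 11 and 27 reads in MO-injected embryos. In prcp, a lysosomal carboxypeptidase gene, bin E009 had 8, 9 and 6 reads in MO-injected embryos at stage 10, against 1, 0 and 0 in uninjected embryos. At stage 15 it had 26, 2 and 21 reads in MO-injected embryos. The groups did not overlap at stage 10 in any of these 4 bins, as in 97.4% of all bins listed at stage 10, so nothing is read from it.

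The other two bins had no uninjected read at either stage. Bin E008 of ints6, a subunit of the Integrator complex that processes small nuclear RNAs (scaffold_2, 94038559 to 94038641), had 2, 13 and 5 reads in MO-injected embryos at stage 10 and 28, 17 and 40 at stage 15. Its adjusted p in the authors' deposited tables was 0.0465 at stage 10 and 4.59e-10 at stage 15. Bin E005 of pdcd7, for a protein of the minor spliceosome (scaffold_3, 33343187 to 33343288), had 20, 3 and 6 reads in MO-injected embryos at stage 10 and 8, 23 and 17 at stage 15. The gene pdcd7 had 6 listed bins at stage 10, each with 0 reads in all 3 uninjected embryos. At stage 15 the same 6 bins were listed again and only E005 had no uninjected read. Bin E002 of pdcd7, for example, had 25, 28 and 47 reads in MO-injected embryos and 0, 1, 5 and 2 in uninjected embryos at stage 15. At stage 10 it had 45, 15 and 9 in MO-injected embryos.

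**Figure D5:**
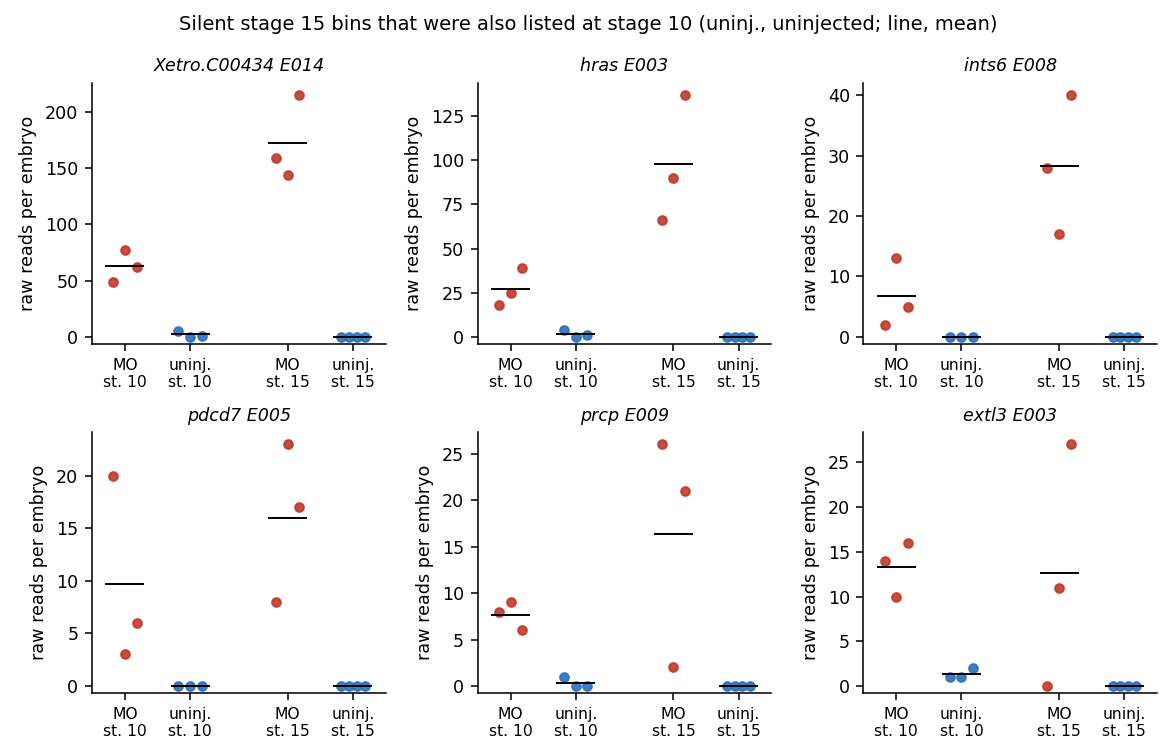
Raw reads per embryo (y axis, linear) in the 6 silent stage 15 bins that were also listed at stage 10, one panel per bin, with MO-injected (red) left of uninjected (blue) embryos at stage 10 and then at stage 15. Black lines are means. Uninjected embryos reach 5 reads at stage 10 in Xetro.C00434 E014 and stay at 0 in ints6 E008 and pdcd7 E005.

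Of the 190 hosts, 12 had some listed bin at stage 10, against 78 of the 856 genes that hosted other listed bins only. Among all genes, 192 had a listed bin at stage 10, where at least 13321 genes were tested for expression. No test of these counts was made. In 6 of the 12 the stage 10 bin was another one than the silent bin. Examples were eda2r E011, with 36, 21 and 19 reads in MO-injected embryos and 12, 0 and 2 in uninjected embryos at stage 10, and kiaa0664 E030, with 9, 9 and 6 against 0, 0 and 0. At stage 15, kiaa0664 E030 had 136, 143 and 191 reads in MO-injected embryos and 6, 0, 0 and 1 in uninjected embryos, beside 4, 7 and 4 reads in MO-injected embryos in the silent bin E007.

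The level of the host gene differed in 33 of the 190 hosts (17.4%), taken from the authors' deposited stage 15 gene table of changes of 2-fold or more. Of these, 18 were higher and 15 lower in MO-injected embryos. That is 9.47% and 7.89% of the hosts, beside 5.96% and 7.26% of the at least 15842 genes tested. Of the 856 genes that hosted other listed bins only, 136 (15.9%) were listed, 33 higher and 103 lower. The gene table and the bins come from the same embryos, and reads in a bin may be part of its gene's count, so the 2 tables are not independent. With silent bins of at least 10 reads over the 3 MO-injected embryos the split was 18 higher and 7 lower. When bins with 1 uninjected read were added, it turned to 23 higher and 31 lower.

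Among hosts that were higher, eda2r, a TNF-family receptor gene, stood at a log2 fold change of 3.91 in the authors' deposited table, where its SE was 0.978 and its adjusted p 0.000824. Its silent bin E003 is 64 bases wide (scaffold_8, 23473455 to 23473518) and had 18, 27 and 35 reads in MO-injected embryos. The ARF GTPase-activating gene acap1 followed in that deposited table of the authors with 3.06 (SE 0.365), and its silent bin E018 had 9, 25 and 26 reads in MO-injected embryos. Between acap1 and acta1 lay hosts without a symbol, such as Xetro.K03865 (2.26, SE 0.933) and Xetro.K00724 (2.05, SE 0.612) in the authors' deposited table. The skeletal muscle actin gene acta1 was at 1.73 (SE 0.269) in the authors' deposited table. It had silent bins E034, with 6, 6 and 4 reads, and E035, with 6, 2 and 16 reads, in MO-injected embryos. The authors' deposited table completed the 5 largest increases of hosts with a symbol by pgp (1.71, SE 0.386) and creb3l2 (1.67, SE 0.189), for a membrane-bound transcription factor of the secretory pathway. Their silent bins had 4, 28 and 36 and 2, 5 and 9 reads in MO-injected embryos. Smaller increases in the authors' deposited table included ube2o (1.15, SE 0.179) and ints6 (1.04, SE 0.181), whose silent bins are described above.

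In hosts that were lower, the bin was read in MO-injected embryos although the gene as a whole was higher in uninjected embryos. The smooth muscle actin gene acta2 had a log2 fold change of -3.02 (SE 0.739) in the authors' deposited table. Its silent bin E001, 177 bases wide (scaffold_7, 10621394 to 10621570), had 4, 1 and 2 reads in MO-injected embryos, and its listed bin E004 had 3, 12 and 3 reads in MO-injected embryos and 3, 4, 7 and 0 in uninjected embryos. Actin genes are near-identical copies of each other, and the sources consulted do not say how the counting placed reads that match several copies. Among hosts with a symbol, the next decreases in the authors' deposited table were rhobtb2 (-2.58, SE 0.617), myo1a (-2.25, SE 0.283), a class I myosin gene, and tmem198 (-1.85, SE 0.205). Their silent bins had 2, 4 and 0, then 2, 0 and 4, then 0, 5 and 1 reads in MO-injected embryos. The polarity gene mpp7 was at -1.78 (SE 0.336) in the authors' deposited table. Apart from mpp7 E001, the silent bins of these hosts held at most 7 reads in all. A host without a symbol, Xetro.D00186, had a larger decrease than acta2 (-3.29, SE 0.610, in the authors' deposited table). A host with a smaller decrease, apobec2 (-1.23, SE 0.422, in the authors' deposited table), had 26, 5 and 20 reads in its silent bin in MO-injected embryos.

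At stage 10, 4 of the 190 hosts (2.11%) were listed for expression, beside 2.19% of the at least 13321 genes tested there. The direction of that gene table is not in its header and could be compared with bin reads in only 11 genes (Spearman 0.71). Of 53 genes listed for expression at both stages, 46 had the same sign at each. A gene need not change alike at both stages, so the signs are given as deposited. The log2 fold changes in the authors' deposited table were -1.18 (SE 0.357) for cd276, an immune checkpoint gene, -0.86 (SE 0.257) for pias2, a SUMO ligase gene, 0.67 (SE 0.134) for stard8 and 0.78 (SE 0.200) for kiaa1715. At stage 15, cd276 was lower in MO-injected embryos (-1.17, SE 0.337, in the authors' deposited table). The deposited mean normalised count of cd276 was 210.216 at both stages, so its 2 fold changes need not come from separate fits.

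By gene family, 156 hosts had a symbol, which was 17.6% of the 885 genes with a symbol and a listed bin. In the list of cytoskeleton, motor and cilia genes 13 of 37 genes with a listed bin (35.1%) had a silent one. The lists were built from the first letters of symbols, so each also holds genes of other kinds and leaves out some of its own kind. This one misses hosts such as afap1 and agbl3, so its share is no measure of such genes. Bins with the most reads in that list were tubgcp6 E014, in a gene of the gamma-tubulin complex (17, 10 and 23 reads in MO-injected embryos), kif6 E027, a kinesin gene (12, 2 and 14), acta1 E035 and ift140 E019, a gene of intraflagellar transport (6, 4 and 13). The list of kinases and phosphatases had 7 of 26 (26.9%). It was led by prkcz E027 (20, 18 and 15 reads in MO-injected embryos), in a gene for an atypical protein kinase C of cell polarity. Its prefixes take in the phosphodiesterase genes pde7b and pde9a and miss kinase hosts such as fes and mak. Its share is therefore no measure of such genes.

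The list of splicing and RNA-binding genes had 1 of 20 (cpsf6, a factor of messenger RNA 3′ end processing), but its prefixes miss the hosts pdcd7, sart1 and raver1, which also act in splicing or bind RNA, so its share is no measure of such genes. Zinc-finger genes had 1 of 15 (zbtb37). No gene of the 13 with a listed bin in the list of cell cycle, replication and DNA repair had a silent bin. The list of small GTPases and their regulators had 5 of 38, led by dennd2a E014 (11, 30 and 21 reads in MO-injected embryos). Its prefixes miss the hosts hras and gapvd1, whose silent bins had more reads, so its share is no measure of such genes either. Ubiquitin and protein turnover genes had 5 of 36, and solute carriers and ATP-driven transporters 4 of 28. Adhesion, matrix and axon guidance genes had 3 of 20, among them robo1 and plxnb2 with 8 reads each over the 3 MO-injected embryos. The chromatin list, which leaves out gatad2b, had 1 of 12 (smarcc2). The list of ion channels, neurotransmitter receptors and synapse genes, which leaves out hrh3, had 1 of 14. This was ryr1, the calcium release channel of muscle. Its bin E074 had 1, 19 and 28 reads in MO-injected embryos. The list of FGF, BMP, Nodal, Wnt, Notch and Hedgehog signalling had 2 of 15. These were fgf16 E008 (2, 27 and 13 reads in MO-injected embryos) and bmper E002 (4, 5 and 10 reads). Developmental transcription factors had 2 of 20. That list held pax3, a neural crest and muscle factor, whose bin E005 had 4, 5 and 1 reads in MO-injected embryos, and the chromatin gene gatad2b. No test was made of these shares, and the lists are short.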

How the data were processed

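RNA-seq libraries came from single whole embryos, and the tools in the submitters' processing notes are Bowtie, TopHat, Cuffdiff, Cufflinks, DESeq2 and DESeq, without versions or roles. The deposited bin tables give, per the file headers, raw counts per bin and embryo, their mean (a signal over embryos), fitted usage scores, a dispersion score, a log2 usage ratio (uninjected over MO-injected, sign turned here), and p-values before and after adjustment. The deposited gene tables hold a mean normalised signal, log2 fold changes, their standard errors and adjusted p-values. The sources consulted do not give the read mapping, strand use, annotation or genome build. The stage 15 gene table's direction was read from the data: over 169 genes with listed bins, the raw log2 ratio of bin reads (MO-injected over uninjected, pseudocount 0.5) had a Spearman correlation of 0.69 with the deposited fold change. A positive stage 15 gene value is taken to mean a higher level after MO injection. Numbers of tested bins and genes were taken from the ratio of adjusted p to p in the first entry of each list and are lower bounds.

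The repeated header was dropped, and silent bins were selected and summarised with pandas 2.3.3 and numpy 2.4.6 in Python 3.11.15. No model was refitted, because the tables hold selected bins only. Of 190 hosts, 155 had a name found among the symbols or synonyms of RefSeq's UCB_Xtro_10.0 table, which was used for nothing else. Members and lists were chosen with earlier results of these data known. Named bins have hosts with a symbol and the 10 largest mean counts, 5 smallest adjusted p-values, 5 largest or smallest widths, 3 or more silent bins, a stage 10 listing, the 5 largest host gene changes each way, values next to the threshold, or a place on a gene list. Bins named outside this rule were chosen after their values were seen. They are those of Xetro genes, hrh3, per2, apobec2 and kiaa0664, the hosts with changed expression at stage 10, and further bins of named hosts. Intervals and floors cover counting error only. Depth per library is unknown. The embryos are separate animals, and the authors' p-values come with a dispersion fitted per bin. This dispersion need not follow the spread between the embryos of a bin. It was 0.0748 in Xetro.K02407 E008, with 0, 0 and 41 reads in MO-injected embryos.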

Additional observations from a re-analysis of the deposited data

How the results depend on the processing

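The number of silent bins, 229, lay between 256 and 294 when any 1 uninjected embryo was left out of the rule. It was 371 with at most 1 read over the 4 uninjected embryos, 494 with at most 1 read in each, 154 with at least 10 reads over the MO-injected embryos and 107 with an adjusted p under 0.01. The median of the mean MO-injected count, 4.33 reads, ranged between 4 and 5 without 1 MO-injected embryo. The median width stayed between 120 and 144 bases under the 3 alternatives tried. The 6 silent bins listed at stage 10 by equal coordinates were also 6 by any overlap, and 12 host genes had any listed bin there. The 33 hosts listed for expression became 25 with at least 10 reads and 54 with at most 1 uninjected read. Fewer or more bins enter under these settings by construction. No paired analysis was possible because the count columns carry numbers that the labels do not tie to embryos. Unknown library depth limits every comparison of raw counts, and most silent bins had too few reads to tell 0 from a low level in uninjected embryos.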
